A study of Mus musculus with 12 samples.

Results

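The genes described here make cholesterol, make long-chain fatty acids, and insert double bonds into them, together with the SREBP regulators that set their transcription. They are 34 mouse genes: 5 regulators, 16 genes of sterol synthesis, 1 gene of sterol transport, 4 of fatty acid synthesis, 3 of fatty acid elongation and 5 desaturases. Histone marks at these genes were mapped with CUT&RUN, which uses an antibody to bring a nuclease to a mark and releases the DNA around it. The members were the SEACR peaks that overlapped the RefSeq span of a member gene extended by 1 kb on the mm10 build. There were 254 such peaks of 226396 in all: 103 of 58548 for H3K4me3, 133 of 62547 for H3K27ac and 18 of 105301 for H3K27me3.

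The organoids were mouse intestinal organoids, grown from isolated crypts in Matrigel. They had received arachidonic acid (AA) at 25 µM, or vehicle, for 6 days, and each of the 6 groups (AA and vehicle for each of 3 marks) had 2 libraries. All groups shared a medium with EGF, Noggin, R-spondin, N-acetyl-L-cysteine, the GSK3 inhibitor CHIR-99021, the ROCK inhibitor Y-27632 and the supplements B27 and N2. The sample labels name no genotype, whereas the series' design describes Ptger knockout organoids, which lack a prostaglandin E receptor, and an arm with a prostaglandin; no genotype is therefore given, and that arm was not analysed here. Whether the 2 libraries of a group stem from separate cultures or animals is not in the labels. The p-values therefore measure no more than the difference between such libraries, and that spread may be technical.

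SREBP transcription factors are made as precursors in the membrane of the endoplasmic reticulum. The escort protein SCAP carries them to the Golgi, where they are cleaved, while the INSIG proteins hold SCAP back when sterols are plentiful. SREBP-2, encoded by Srebf2, mainly drives cholesterol synthesis, and SREBP-1c, a product of Srebf1, mainly drives fatty acid synthesis and desaturation. Polyunsaturated fatty acids such as AA are known to lower SREBP-1 activity and the transcription of desaturase genes in rodent liver and in cultured cells. AA is itself made from linoleic acid by the FADS2 and FADS1 desaturases and the elongase ELOVL5. H3K4me3 marks active promoters, H3K27ac marks active promoters and enhancers, and H3K27me3 marks genes repressed by Polycomb.

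Promoter sequences of 4 members that the results return to are printed here 5′ to 3′, from RefSeq on GRCm38.p6 (the assembly of mm10), as 250 bases before the transcript start and 30 from it on. They are shown because the H3K4me3 domains of Fads2 and Insig1 scored lower in AA without passing the test. The mark differed within the Msmo1 domain, and the domain of Hmgcs1, a classical SREBP-2 target, was as a whole close to vehicle. Capitals mark an SRE (CACCCCAC), an NF-Y box (CCAAT) or an E-box (CACGTG) on either strand. Fads2 lies at chr19:10101474-10101753, minus strand, Insig1 at chr5:28071162-28071441, plus strand, Msmo1 at chr8:64733549-64733828, minus strand, and Hmgcs1 at chr13:119690101-119690380, plus strand.
Fads2: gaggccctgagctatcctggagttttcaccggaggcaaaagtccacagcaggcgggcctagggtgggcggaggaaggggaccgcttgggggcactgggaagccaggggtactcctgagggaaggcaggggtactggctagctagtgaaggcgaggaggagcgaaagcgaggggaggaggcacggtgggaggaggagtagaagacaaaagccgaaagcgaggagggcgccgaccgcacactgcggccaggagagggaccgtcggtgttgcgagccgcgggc
Insig1: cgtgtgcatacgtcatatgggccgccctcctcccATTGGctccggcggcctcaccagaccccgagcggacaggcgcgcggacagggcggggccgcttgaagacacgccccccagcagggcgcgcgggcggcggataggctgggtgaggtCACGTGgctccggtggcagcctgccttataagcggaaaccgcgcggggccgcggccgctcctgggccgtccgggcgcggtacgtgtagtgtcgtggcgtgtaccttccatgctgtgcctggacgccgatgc
Msmo1: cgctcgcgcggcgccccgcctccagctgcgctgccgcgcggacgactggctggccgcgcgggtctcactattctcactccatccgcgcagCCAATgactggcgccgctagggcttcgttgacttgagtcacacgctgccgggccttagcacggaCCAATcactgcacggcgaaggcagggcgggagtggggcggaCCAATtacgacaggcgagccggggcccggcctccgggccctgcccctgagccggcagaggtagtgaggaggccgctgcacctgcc
Hmgcs1: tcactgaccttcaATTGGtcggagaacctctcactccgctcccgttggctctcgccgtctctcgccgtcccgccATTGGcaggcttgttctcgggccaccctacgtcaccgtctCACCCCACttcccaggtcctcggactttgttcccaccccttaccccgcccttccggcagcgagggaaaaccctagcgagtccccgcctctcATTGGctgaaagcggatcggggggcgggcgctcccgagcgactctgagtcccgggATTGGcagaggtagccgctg
The Fads2 window held none of the motifs in capitals, Insig1 had an NF-Y box and an E-box, Msmo1 had 3 NF-Y boxes, and Hmgcs1 had an SRE at position -136 from the start and 4 NF-Y boxes. The table of promoters held 36 windows of 27 members, each reaching 50 bases past the start. An NF-Y box was found in 23 of the 36 (63.9%), against 38.2% of 21262 windows of protein-coding genes. An E-box was found in 7 (19.4%, against 7.84%) and a Sp1 box (GGGCGG) in 27 (75%, against 46.2%). The full SRE was in 2 windows, those of Hmgcs1 and Acat2 (5.56%, against 2.88%), and its core CACCCC, which is part of it, in 11 (30.6%, against 27.8%). No member window held the exact repeat elements of LXR or PPAR, which 0% and 0.0470% of all windows held. A match is a string of letters and not a bound site.

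The peak score is a mean coverage per base, scaled by the authors with 1 factor per library. The raw coverage of the median H3K4me3 peak was 1.37 and 1.46 in the AA libraries, against 3.38 and 2.35 in the vehicle libraries, so the AA group was shallower. For H3K27ac the raw coverage was 2.28 and 2.76 in AA, against 1.95 and 2.45 in vehicle, and for H3K27me3 it was 1.19 and 1.60 in AA, against 1.85 and 1.29 in vehicle. All 10 epithelial markers had an H3K4me3 and an H3K27ac peak at a gene end. Fibroblast markers had an H3K4me3 peak for 3 of 9 genes and an H3K27ac peak for 0, and blood markers had 1 of 6 for each mark. None of these passed for H3K4me3. Of 3 liver and 2 adipocyte markers, Plin1 fell by 1.11 and Ttr by 0.81, and Apoa2, also an intestinal gene, rose by 0.43 (limma adjusted p = 0.0141, 0.0391 and 0.0439). Of 5 endothelial and glial markers only Kdr had an H3K4me3 peak, with -0.90 (limma adjusted p = 0.192). For H3K27me3, where 3.13% of all genes were called, the blood marker Lyz2 rose by 1.48 and the fibroblast marker Vim by 0.51 (limma adjusted p = 0.00551 and 0.0403). The summed H3K4me3 score of the fibroblast markers was 1.16 and 0.765 in AA, against 1.18 and 1.49 in vehicle, and that of the epithelial markers was 9.80 and 8.50 in AA, against 8.39 and 8.10 in vehicle. Single epithelial markers ranged from -0.61 at Olfm4 to 0.40 at Epcam, none past the threshold. These differences move with the groups, and their part in the results was not tested.

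The member genes carried long H3K4me3 domains. A gene-end peak, one within 1 kb of either end of the gene, was present for 32 members, all but Insig2 and Pmvk, which had a peak over a transcript start further inside the RefSeq span. The strongest such peak had a median length of 7229.5 bp over the members, against 4166 bp over 14448 genes, and 30 of the 32 were longer than that median. The longest 10% of all genes included 12 members. Scd2, a stearoyl-CoA desaturase gene, had the longest domain with 16215 bp, which covered the whole gene, and Tm7sf2, a sterol reductase gene, followed with 14477 bp in a cluster of short genes. Insig1 had 11791 bp, Hmgcs1 11522 bp, Sqle 11005 bp, Scd1 11001 bp, Fads2 10751 bp and Fads1 9589 bp. In vehicle libraries, 24 members scored above the median of all genes, and the median member scored 0.782, against 0.668 over all genes. The 2 members whose strongest gene-end peak was shorter than the median of all genes were Scap, with 3505 bp, and Fdft1, which encodes squalene synthase, with 741 bp. This Fdft1 peak also had the lowest vehicle score of the members, 0.156. It was not the main signal of the gene. A narrower peak of a second caller, MACS2, lay inside the Fdft1 span, more than 1 kb from either end. That peak, of 1109 bp, scored 2.81 and 2.08 in AA, against 1.86 and 2.14 in vehicle. H3K27ac showed a like picture, with a median of 5635 bp for 31 members, against 3566 bp over 11865 genes.

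**Figure D1:**
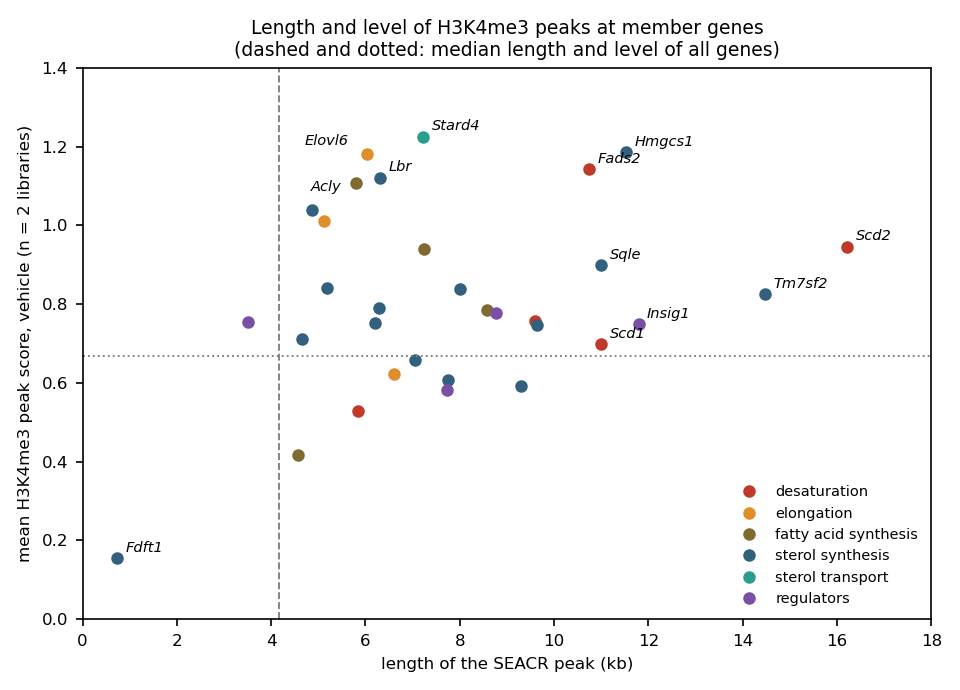
Length of the strongest H3K4me3 gene-end peak of each member (x axis, kb) against its mean score in the 2 vehicle libraries (y axis), coloured by role; lines give the medians of all 14448 genes. Of the 32 members, 30 lie right of the median length, and Fdft1 lies alone at the lower left. The stronger H3K4me3 signal of Fdft1 lies further inside the gene and is not drawn.

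The main comparison asked whether 6 days of AA changed these marks. H3K4me3 rose at 2 member peaks and fell at 0 of the 103 (limma, adjusted p over all 58548 peaks below 0.05), while 2.92% of all peaks were called, 1.54% higher and 1.38% lower. At an unadjusted p below 0.05 the count was 14 of 103, where 9469 of all 58548 peaks were. Among the strongest gene-end peaks, 2 of 32 members were called, both higher, where 6.66% of all genes were called (5.45% higher and 1.2% lower). The median change on the log2(score + pseudocount) scale was 0.12 over these 32 members, below the 0.20 over all genes. AA libraries lay above both vehicle libraries at 18 of the 32, where 51% of all genes did, and below both at 5, where 13.9% did. The share of members called was not above the background. In these bulk libraries fewer cells with a mark and less of the mark per cell cannot be told apart.

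**Figure D2:**
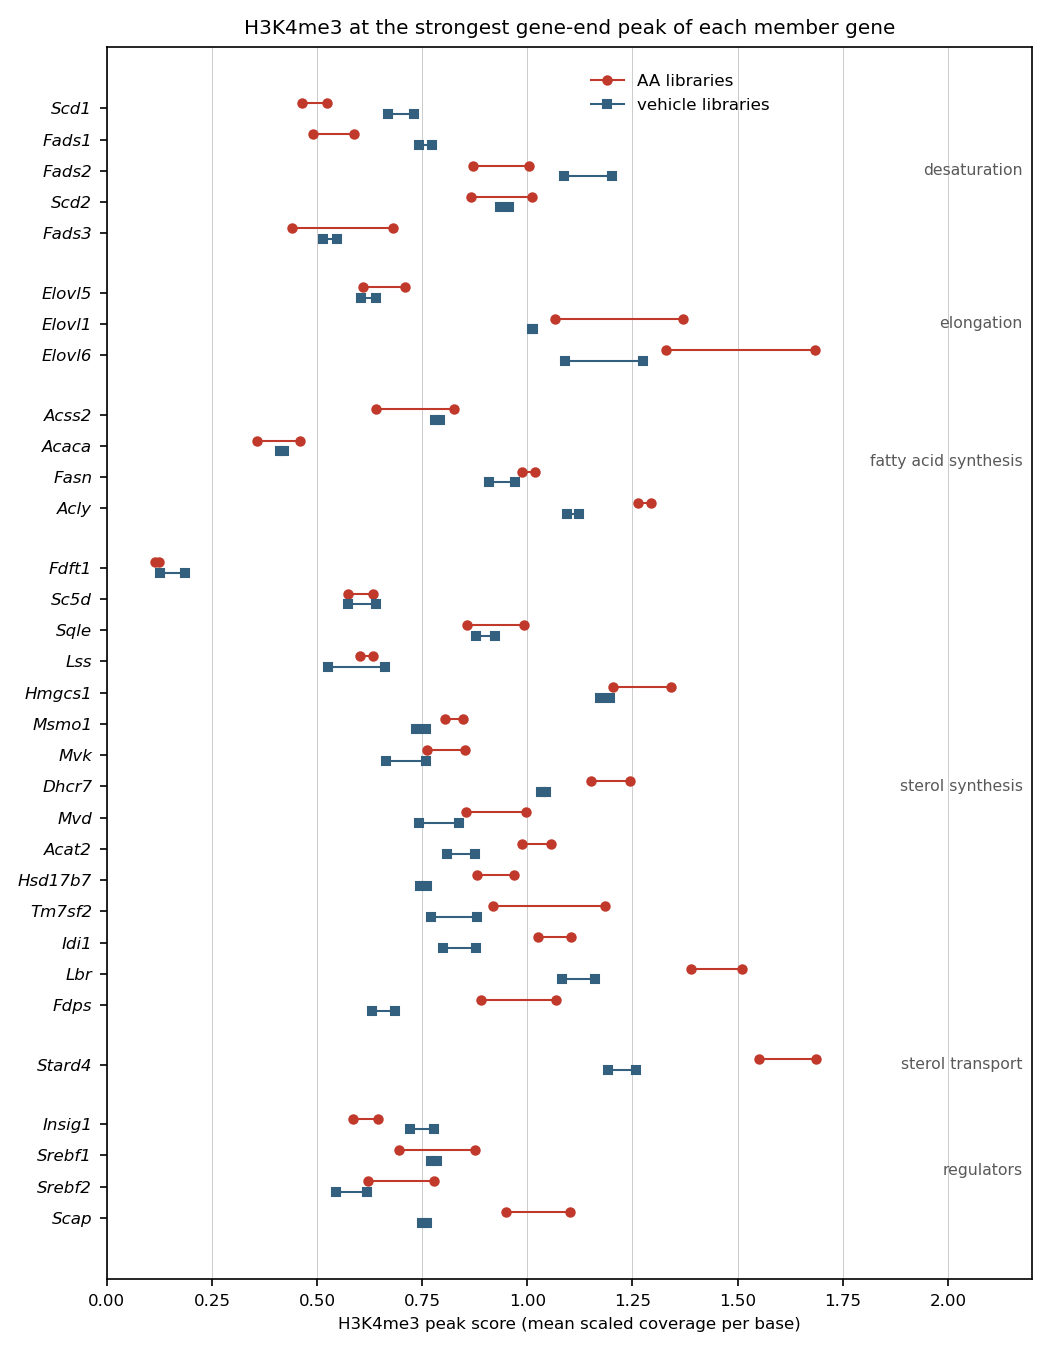
H3K4me3 peak score (x axis, mean scaled coverage per base) in each AA library (circles) and each vehicle library (squares) at the strongest gene-end peak of 32 members, grouped by role. The AA points lie left of the vehicle points without overlap at Scd1, Fads1, Fads2, Fdft1 and Insig1, and right of them at 18 members. Fdps, by the peak that reaches Rusc1, and Stard4 are past the threshold. For Fdft1 a weak gene-end peak is drawn, with stronger signal further inside the gene.

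The desaturases were the group with the lowest H3K4me3 change, with a median of -0.28 over 5 genes. Of these, 4 were below 0, where 3919 of all 14448 genes were, and Scd2 among them had only -0.015 ± 0.15. None passed the threshold. These scores are means over whole domains, and narrower MACS2 peaks within them differed. Such peaks had 0.37 over the Fads2 start, -0.0088 at the Fads1 end and 0.91 next to the Scd2 end. At Scd1 they had 0.066 just outside its end and -0.39 just inside. Scd1, the stearoyl-CoA desaturase that makes oleic acid, scored 0.524 and 0.463 in the AA libraries, against 0.729 and 0.669 in the vehicle libraries. Every AA value was under every vehicle value, a change of -0.48 ± 0.20 (SE, n = 2 libraries each; limma adjusted p = 0.174). Fads1, the Δ5 desaturase that forms AA, scored 0.588 and 0.489 in AA, against 0.773 and 0.742 in vehicle. The groups did not overlap, and the change was -0.48 ± 0.19 (limma adjusted p = 0.151). Fads2, the Δ6 desaturase at the entry of the pathway, scored 1.00 and 0.870 in AA, against 1.20 and 1.09 in vehicle, with a change of -0.28 ± 0.14 (limma adjusted p = 0.305). Of 14448 genes, 10.5% had a lower change than Scd1, 10.5% a lower one than Fads1 and 15.4% a lower one than Fads2.

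Fads2 had weaker H3K4me3 peaks inside the gene as well, whose values lay on the same side. The peak of 2921 bp scored 0.161 and 0.190 in AA, against 0.276 and 0.238 in vehicle. That of 1756 bp scored 0.202 and 0.110 in AA, against 0.249 and 0.223 in vehicle. Peaks away from gene ends were lower in AA in general: 69.2% of the 44102 such peaks were below 0, with a median of -0.32, and 47 of 61 member peaks of this kind (77.0%) were, with a median of -0.36. The remaining desaturases lay close to vehicle. Scd2 scored 1.01 and 0.866 in AA, against 0.957 and 0.935 in vehicle, and Fads3, whose substrates differ from those of FADS1 and FADS2, scored 0.679 and 0.440 in AA, against 0.513 and 0.546 in vehicle. In both, the vehicle values lay inside the range of the AA values. Fads1, Fads2 and Fads3 lie side by side on chromosome 19 and so do Scd1 and Scd2, which are close in sequence; how the authors placed reads that match several sites is not given in the sources used here.

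Among the regulators, Insig1 and Scap had values on opposite sides of 0, neither past the threshold. Insig1, itself an SREBP target whose product retains SCAP, scored 0.646 and 0.585 in AA, against 0.721 and 0.778 in vehicle. The groups did not overlap, with a change of -0.27 ± 0.18 (limma adjusted p = 0.466). Scap, the escort gene, scored 1.10 and 0.949 in AA, against 0.761 and 0.749 in vehicle. Its AA values were the higher ones, by 0.42 ± 0.16 (limma adjusted p = 0.116). Insig2, which is not induced by SREBP in the way Insig1 is, had 2 of its transcript starts in a peak that scored 1.18 and 1.03 in AA, against 0.876 and 0.851 in vehicle, a change of 0.34 (limma adjusted p = 0.205). Srebf2 scored 0.779 and 0.620 in AA, against 0.619 and 0.546 in vehicle, with a change of 0.25 (limma adjusted p = 0.535).

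Srebf1 has separate starts with a peak each. The peak over the 2 outer starts in the table scored 0.874 and 0.694 in AA, against 0.771 and 0.785 in vehicle, a change of 0.0021. The peak over the inner start scored 0.887 and 0.782 in AA, against 1.10 and 0.956 in vehicle. There, both AA values were under both vehicle values, by 0.29 on the log2 scale (change -0.29 ± 0.15, limma adjusted p = 0.323). Neither passed the threshold, and the difference between the peaks was not tested.

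Sterol synthesis genes lay mostly above 0, with a median of 0.20 for the 15 genes with a gene-end peak, close to the median over all genes. Of the 15, 13 were above 0, where 10529 of all 14448 genes were. AA lay above vehicle without overlap at 11, where 51% of all genes did. The largest rise was at a peak of 7060 bp at an end of Fdps, which encodes farnesyl diphosphate synthase. It scored 1.07 and 0.889 in AA, against 0.686 and 0.630 in vehicle. The change was 0.55 ± 0.17 (limma adjusted p = 0.0385). This peak also reached the end of the neighbouring gene Rusc1, and with the table giving no strand it could not be told which gene's start it covers. The peak at the other end of Fdps, which also holds its H3K27ac peak, scored 0.819 and 0.739 in AA, against 0.731 and 0.661 in vehicle, a change of 0.16 (limma adjusted p = 0.674). The only MACS2 peaks of Fdps, for H3K4me3 and for H3K27ac, lay at this other end, so the called rise was not at the end where they lay. Stard4, whose product carries cholesterol between membranes, scored 1.69 and 1.55 in AA, against 1.26 and 1.19 in vehicle, and rose by 0.39 ± 0.12 (limma adjusted p = 0.0406). Without vehicle replicate 1 or vehicle replicate 2 neither call held, in fits that called 36 and 32 of all 58548 peaks: the adjusted p was 0.839 and 0.884 for both genes, with changes of 0.35 to 0.61.

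Next in size were Lbr, a sterol reductase gene whose product also sits in the nuclear envelope, Idi1, which encodes isopentenyl diphosphate isomerase, and Tm7sf2. Lbr scored 1.51 and 1.39 in AA, against 1.16 and 1.08 in vehicle, a change of 0.36 ± 0.13 (limma adjusted p = 0.0896). Idi1 scored 1.10 and 1.03 in AA, against 0.878 and 0.800 in vehicle, a change of 0.33 (limma adjusted p = 0.229). At both genes the AA libraries were the higher ones without overlap. Hmgcs1 and Sqle were closer to 0. Hmgcs1, which encodes the enzyme that makes HMG-CoA, scored 1.34 and 1.20 in AA, against 1.20 and 1.17 in vehicle (0.10 ± 0.13, limma adjusted p = 0.721). The 2 narrower MACS2 peaks at the Hmgcs1 end were higher in AA without overlap, by 0.32 and 0.39 (limma adjusted p = 0.151 and 0.0578). After quantile normalization these peaks had -0.12 and -0.092. Sqle, squalene epoxidase, scored 0.991 and 0.858 in AA, against 0.922 and 0.878 in vehicle (0.034 ± 0.15, limma adjusted p = 0.922). Fdft1 had the lowest value of the group, -0.31, on a weak peak that scored 0.114 and 0.124 in AA, against 0.185 and 0.126 in vehicle. Of 5 MACS2 peaks further inside Fdft1, 2 were below 0, with changes of -0.89 to 0.26, none past the threshold. The strongest of them was the one with 0.26.

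Fatty acid synthesis and elongation genes showed no call. Fasn, fatty acid synthase, scored 0.986 and 1.02 in AA, against 0.969 and 0.909 in vehicle, and Acaca, acetyl-CoA carboxylase, scored 0.459 and 0.357 in AA, against 0.412 and 0.421 in vehicle. The median of the 4 synthesis genes was 0.027. Of the elongases, Elovl6, which lengthens palmitate to stearate, scored 1.68 and 1.33 in AA, against 1.27 and 1.09 in vehicle, a change of 0.34 ± 0.12 (limma adjusted p = 0.109). Elovl5, which acts between FADS2 and FADS1, scored 0.710 and 0.610 in AA, against 0.640 and 0.604 in vehicle.

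The SEACR domains are long, and the narrower MACS2 peaks of the same libraries showed where within them the signal differed. MACS2 gave 94 member peaks for H3K4me3. In limma 8 rose and 4 fell, where 5.22% of all 36552 MACS2 peaks rose and 1.09% fell. Those that rose lay within 2.13 kb of the marked end of the gene, the end nearest to its strongest MACS2 peak, and those that fell lay 2.43 to 5.55 kb into the gene, apart from one at Sc5d. The largest rise was at Scd2, whose SEACR domain as a whole scored close to vehicle. Its peak of 412 bp next to the marked end scored 4.16 and 3.23 in AA, against 1.77 and 1.99 in vehicle. Both AA values were above both vehicle values, a rise of 0.91 ± 0.14 (limma adjusted p = 0.000437), and it passed without any 1 library (adjusted p up to 0.0174). A second Scd2 peak, 2.13 kb into the gene, rose by 0.53 (limma adjusted p = 0.0154), and another, 4.57 kb in, scored 1.88 and 1.33 in AA, against 2.37 and 1.93 in vehicle.

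Insig1 had a raised and a lowered peak within one domain. Its peak next to the start, of 607 bp, scored 1.93 and 2.18 in AA, against 1.15 and 1.35 in vehicle, and rose by 0.66 ± 0.18 (limma adjusted p = 0.026). The peak 2.43 kb into the gene scored 0.367 and 0.629 in AA, against 1.18 and 1.82 in vehicle. It fell by 1.33 on the log2 scale (limma adjusted p = 0.00674). A peak 4.88 kb upstream, outside the extended span of Insig1, scored 0.564 and 0.547 in AA, against 1.24 and 1.54 in vehicle, and fell by 1.10 (limma adjusted p = 0.0130). So the lower SEACR score of Insig1 came with a higher score next to the promoter printed above. Msmo1, a sterol methyl oxidase gene, rose at its start by 0.55, with 2.27 and 2.15 in AA, against 1.51 and 1.39 in vehicle, and fell by 0.92 at 3.78 kb into the gene.

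Among the desaturases, Fads1 had a lower peak inside the gene. It scored 1.74 and 1.61 in AA, against 1.76 and 1.62 in vehicle, at its marked end, where the groups overlapped. At 5.55 kb into Fads1 the score was 0.569 and 0.182 in AA, against 1.16 and 1.25 in vehicle, a fall of 1.44 ± 0.33 (change -1.44, limma adjusted p = 0.0114). Fads2 scored 2.37 and 2.40 in AA, against 1.96 and 1.67 in vehicle, over its start (0.37, limma adjusted p = 0.128), and 1.26 and 0.717 in AA, against 1.56 and 1.52 in vehicle, at 6.48 kb (-0.60, limma adjusted p = 0.111). Scd1 scored 1.79 and 1.34 in AA, against 1.47 and 1.48 in vehicle, just outside its end, and 1.31 and 1.14 in AA, against 1.75 and 1.57 in vehicle, just inside. Sc5d, a sterol desaturase gene, fell by 1.02 at 0.930 kb outside its marked end (limma adjusted p = 0.0320).

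Changes were also lower far inside the gene over all genes. MACS2 peaks from 0 to 1 kb inside the marked end had a median change of 0.34 over 20 member peaks and 0.27 over all 9078 peaks, and those from 4 to 8 kb inside had -0.40 over 5 member peaks and -0.11 over all 912. Between these, the medians for members and all genes were 0.19 and 0.30 from 1 to 2 kb and 0.24 and 0.13 from 2 to 4 kb. From 1 to 8 kb outside the marked end of a member gene lay 7 peaks, most of them beyond the extended span and so not member peaks. Their median was -0.33, with 5 below 0, whereas all 3718 peaks had 0.20. The change also followed the level: of 5 equal bins of all MACS2 peaks by score, the weakest (median score 0.312) had a median change of -0.53 and the strongest (1.90) had 0.38. The called member peaks that fell had mean scores of 0.789 to 1.02, where the bin around 0.834 had a median change of -0.049. Depth, level and position moved together here, and their part was not tested. In further fits chosen after the data were seen, each library was left out in turn. Of the 13 called peaks within 8 kb of a marked end, all but the Scd2 peak of 412 bp lost their call without vehicle replicate 1 or vehicle replicate 2. All 13 kept their sign in these fits, which was fixed in advance, since their AA and vehicle values did not overlap. After quantile normalization of the MACS2 scores 3 passed, the inner peaks of Fads1 and Msmo1 and the upstream peak of Insig1, all of them falls. The Scd2 peak of 412 bp had 0.49 there (limma adjusted p = 0.0998). The share of all MACS2 peaks that passed in these further fits was not counted, so what held or was lost may not be particular to the members. The falls that no longer passed were about as large, with -1.35 at the inner Insig1 peak and -0.97 at Sc5d. The rises were smaller, with 0.39 at Insig1, 0.24 at Msmo1 and 0.056 at the second Scd2 peak.

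**Figure D3:**
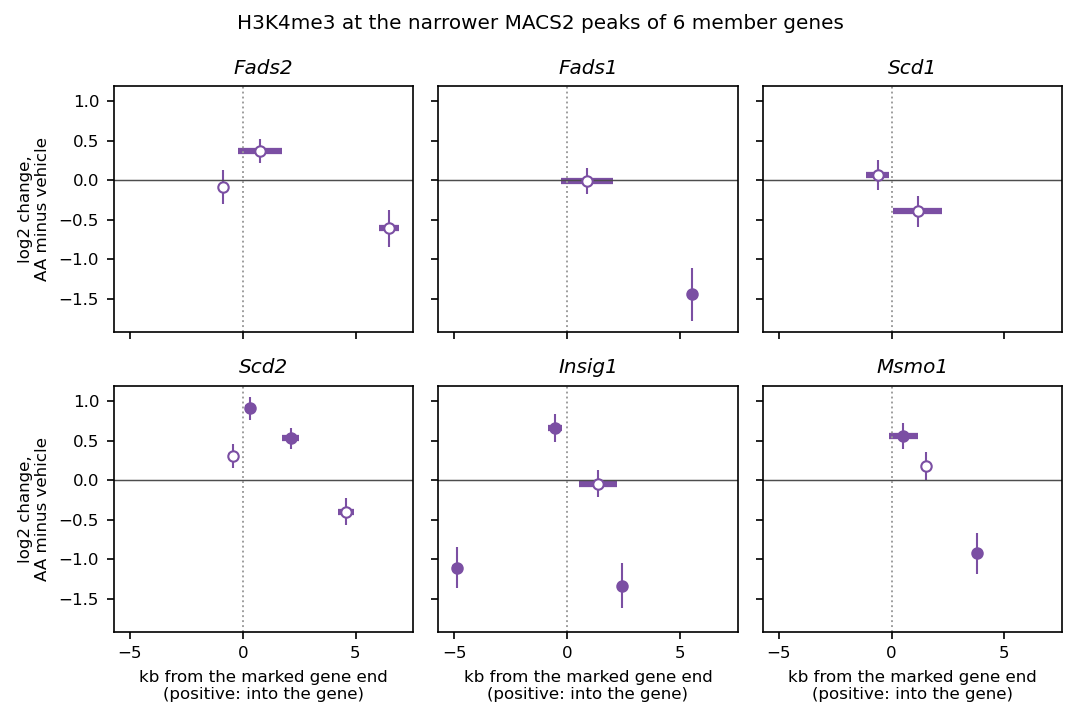
Change in H3K4me3 (y axis, log2, AA minus vehicle, bars for SE) at each MACS2 peak of 6 members by the distance of its centre from the marked gene end (x axis, kb, positive into the gene); thick bars span the peak and filled points passed an adjusted p of 0.05. The genes were chosen after their values were seen. The far upstream peak drawn for Insig1 lies outside its extended span. Scd2, Insig1 and Msmo1 hold both raised peaks near the end and lower ones further off.

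The calls depended on how the libraries were scaled. Over all SEACR peaks, AA libraries lay 0.21 below vehicle libraries on the log2 scale at the median (shift -0.21), while the median gene-end peak lay 0.18 above. Centred on the median of each library, 15 member peaks passed, all higher, and 12 of 32 strongest gene-end peaks did, among them Elovl6, Idi1, Lbr, Scap and Tm7sf2, where 37.5% of all genes were called higher and 0.824% lower. Centred on the median gene-end peak, Fdps and Stard4 passed as higher, and Fads1, Fads2, Insig1 and Scd1 as lower (changes of -0.66, -0.46, -0.45 and -0.66), where 7.77% of genes were higher and 6.61% lower. Quantile normalization gave 1 higher, Fdps, and 6 lower: the same 4 with Hmgcs1 and Scd2 (3.01% and 3.68% of all genes). Centred on the library median, these 4 were closest to 0 and did not pass: Scd1 had -0.27, Fads1 -0.26, Fads2 -0.069 and Insig1 -0.061 (limma adjusted p 0.487 to 0.908). Their changes were below 0 in each of these scalings. The same sign in all 4 fits without 1 library was fixed in advance, since their AA and vehicle values did not overlap. Centring moves every peak by the same amount, so the sign of a change smaller than the shift, such as that of Hmgcs1, Sqle, Scd2 or Srebf1, depends on the scaling. The Fdps peak that reaches Rusc1 passed as higher in each of the 4 scalings. The MACS2 peak at the other end of Fdps was not called (0.27, limma adjusted p = 0.294).

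**Figure D4:**
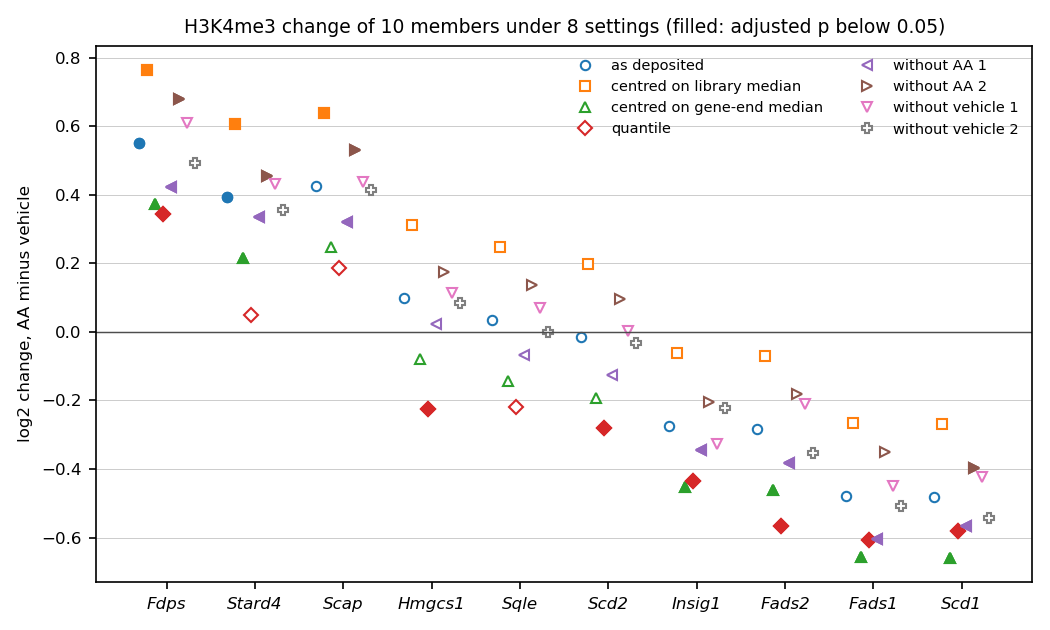
H3K4me3 change (y axis, log2, AA minus vehicle) of 10 members at their strongest gene-end peak under 8 settings: the deposited scaling, 3 other scalings, and the deposited scaling without each library in turn. Filled marks passed an adjusted p of 0.05. Insig1, Fads2, Fads1 and Scd1 stay below 0 in every setting drawn, and Fdps, Stard4 and Scap above. The Fdps peak is the one that reaches Rusc1.

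H3K27ac changed at 0 of 133 member peaks in limma, where 0.2% of all peaks were called. At an unadjusted p below 0.05 were 6 of them, and 4821 of all 62547 peaks. The median was 0.12, against 0.11 over all peaks. At the strongest gene-end peaks of 31 members, 0 were called (0.287% of all genes), the median was 0.13, against 0.15 over all genes, AA lay above vehicle without overlap at 12 (41.4% of all genes) and below at 2 (5.06%). The lowest change was again at Scd1, with 0.136 and 0.179 in AA, against 0.284 and 0.267 in vehicle. The groups did not overlap, the change was -0.61 ± 0.25 (limma adjusted p = 0.487), and 75 of 11865 genes (0.632%) had a lower one. Among these strongest peaks Srebf2 had the largest gain, with 0.494 and 0.493 in AA, against 0.387 and 0.384 in vehicle, a change of 0.31 ± 0.15 (limma adjusted p = 0.608). Both AA values were above both vehicle values there.

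Some members had values of opposite sign in the H3K27ac and H3K4me3 libraries. Insig1 scored 0.356 and 0.371 for H3K27ac in AA, against 0.299 and 0.308 in vehicle, a change of 0.22 where H3K4me3 had -0.27. The Fads2 peak over its start, of 9829 bp, had 0.067 ± 0.19 where the H3K4me3 peak of 10751 bp had -0.28. These are means over long peaks. The narrower H3K4me3 MACS2 peaks next to the Insig1 start and over the Fads2 start had 0.66 and 0.37, the same sign as H3K27ac. Fads1 had -0.092, the same sign as its H3K4me3 change. Elovl6 had 11 H3K27ac peaks, of which the largest gains lay inside the gene: 0.346 and 0.349 in AA, against 0.218 and 0.235 in vehicle, a change of 0.50 (limma adjusted p = 0.432). Acaca, with 35 peaks over a long gene, ranged from -0.70 to 0.84. Pmvk, phosphomevalonate kinase, scored 0.519 and 0.453 at its start in AA, against 0.406 and 0.314 in vehicle, a change of 0.38 (limma adjusted p = 0.468).

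**Figure D5:**
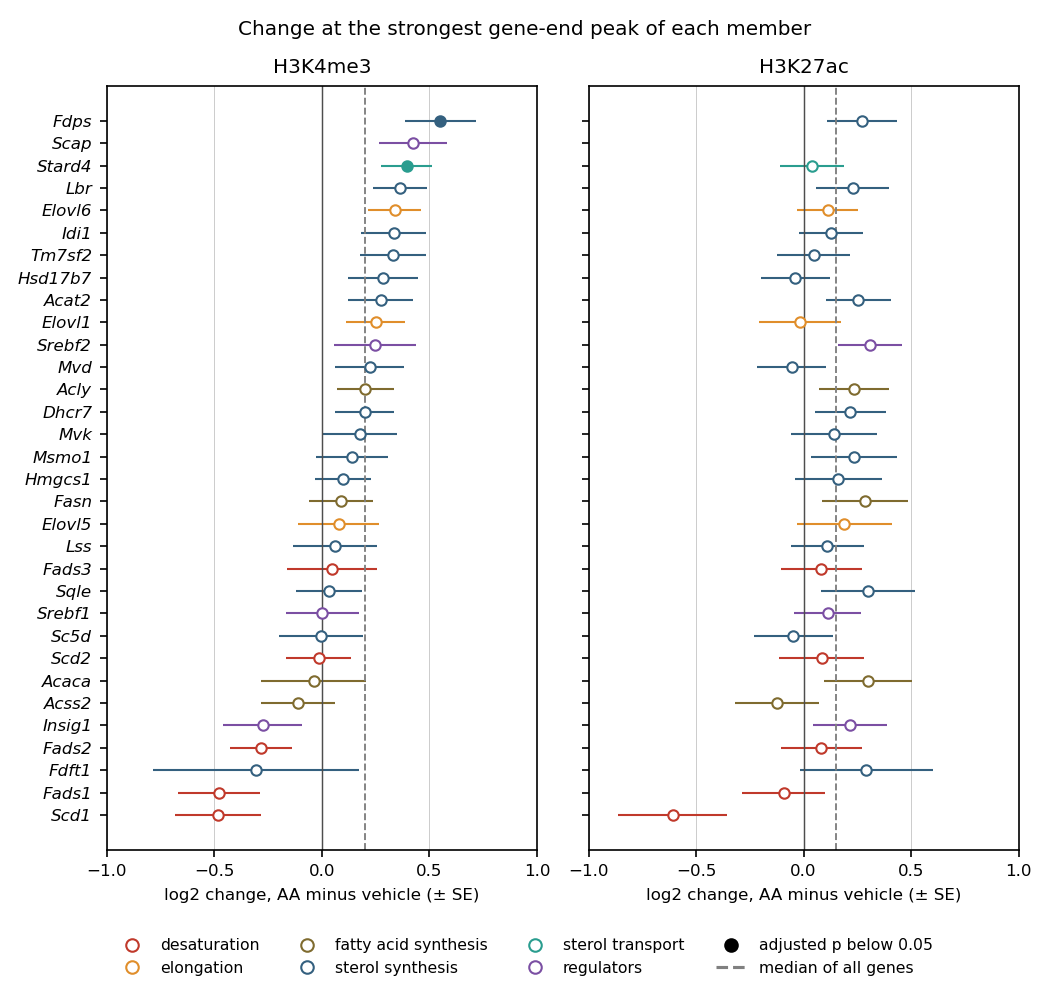
Change (x axis, log2, AA minus vehicle, bars for SE) at the strongest gene-end peak of each member for H3K4me3 and H3K27ac, ordered by H3K4me3 and coloured by role, with a dashed line at the median of all genes. Filled points passed an adjusted p of 0.05, which only Fdps, by the peak that reaches Rusc1, and Stard4 did, for H3K4me3. Scd1 is lowest in both marks. Fads2 and Fads3 share an H3K27ac peak and thus a value.

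H3K27me3 was sparse at these genes. Of 34 members 16 had any peak, the 18 peaks were 631 to 1491 bp long, and their median score was 0.0876, against 0.115 over all peaks. In limma 0 of 18 were called, where 0.545% of all were, and 0 of the 9 at gene ends (3.13% of all genes). At an unadjusted p below 0.05 were 3 of the 18, and 9888 of all 105301 peaks. The largest value with both AA libraries well above vehicle was a peak of 631 bp inside Fdps, with 0.292 and 0.186 in AA, against 0.0822 and 0.0612 in vehicle, a change of 1.36 ± 0.37 (limma adjusted p = 0.0731). The peak at the Hmgcs1 promoter scored 0.115 and 0.0497 in AA, against 0.151 and 0.227 in vehicle, a change of -0.98 (limma adjusted p = 0.441). Scd2 scored 0.0453 and 0.0647 in AA, against 0.143 and 0.103 in vehicle, at its gene end. These scores rest on a raw coverage of under 4 fragments per base.

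Beyond the members, 60 other genes of sterol and fatty acid metabolism were counted. For H3K4me3, 59 had a gene-end peak; 5 rose and 3 fell, 51 stayed short of the threshold, and the median change was 0.19. Over all genes, 5.45% were called higher and 1.2% lower, and the median was 0.20. Mlxipl and Gpam had the largest changes of the 8. Mlxipl, which encodes the carbohydrate-sensing factor ChREBP, an activator of lipogenic genes beside SREBP-1c, scored 0.184 and 0.113 in AA, against 0.671 and 0.624 in vehicle, and fell by 1.98 on the log2 scale (limma adjusted p = 5.64e-09). Gpam, whose product starts triglyceride synthesis, scored 0.326 and 0.247 in AA, against 0.780 and 0.789 in vehicle, and fell by 1.39 (limma adjusted p = 7.42e-07). Npc1l1, the intestinal cholesterol uptake transporter, scored 0.481 and 0.391 in AA, against 0.717 and 0.789 in vehicle, and fell by 0.76 (limma adjusted p = 0.0144). At all 3 the AA values were the lower ones without overlap.

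The 5 that rose were Me1, which supplies NADPH for lipid synthesis (0.76), Ebp, a sterol isomerase gene (0.56), Agpat2 (0.53), Syvn1 (0.50) and Ufd1 (0.44), the last of which acts with Syvn1 in degrading proteins of the endoplasmic reticulum. None of the 8 calls held without vehicle replicate 1 or 2 (highest adjusted p 0.189 for Mlxipl, 0.522 for Gpam and 0.884 for the others), in fits chosen after the data were seen that called no more than 36 and 32 of all 58548 peaks. The changes without 1 library were -2.29 to -1.68 for Mlxipl and -1.57 to -1.20 for Gpam. The sign stayed for all 8, which was fixed in advance, since their AA and vehicle values did not overlap. Agpat2 also lost its call without 1 AA library. For H3K27ac, 52 of the genes had a gene-end peak and 0 passed in limma (0.287% of all genes did). At an unadjusted p below 0.05 were 7 of the 52, and 1408 of all 11865 genes. Gpam had -0.39 and Mlxipl -0.36. For H3K27me3, where 3.13% of all genes were called, 1 of 15 rose, the elongase gene Elovl3, by 0.49 (limma adjusted p = 0.0187), a call that ended in each fit without 1 library (adjusted p 0.139 to 0.747).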

How the data were processed

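CUT&RUN peak scores of 12 libraries were used. The deposited signal is 1 score per peak and library; tested on the values, multiplying a score by its peak length gave whole numbers of a library's step, within 0.1 step, for at least 99.99% of the values below 1000 steps. SEACR and MACS2 peaks on mm10 are named in the submitters' processing notes; the versions, aligner and scaling factors were not given in the sources used here. The table's control rows were read as vehicle, since no other group of the mark remained.

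Peaks were joined to gene spans of a RefSeq table of GRCm38.p6 (mm10) without strand; all 34 members matched. Each mark was fitted over all its SEACR peaks with limma 3.58.1 (trend and robust) in R 4.3.3 on log2(score + pseudocount), AA minus vehicle, over 4 libraries, adjusted after Benjamini and Hochberg and called below 0.05. As pseudocount served the 5th percentile of positive scores (0.0253 for H3K4me3, 0.0693 for H3K27ac, 0.0329 for H3K27me3), so the changes of weak peaks are understated. Named were 15 fixed genes, up to 10 called member peaks per mark, the 3 largest gains and losses per mark at gene ends, and called genes of the wider pathway; further members and the pieces within domains were named after their values were seen. The fit was also run on simulated data with independent noise and no shift or depth difference between libraries, which does not test the dependence on scaling. The members, lists and rules were chosen with earlier results of these data known. Alternatives were other pseudocounts, filters, scalings, MACS2 peaks, overlap rules, a replicate block and leaving out each library.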

Additional observations from a re-analysis of the deposited data

How the results depend on the processing

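For H3K4me3, the 2 called member peaks and the 2 called gene-end peaks became 15 and 12 with libraries centred on their median, 10 and 7 after quantile normalization, 9 and 6 centred on the median gene-end peak (added after the data were seen), 12 and 6 with MACS2 peaks, 1 and 1 when most of a peak had to lie inside the extended span, and 0 and 0 in limma without trend and robust or at an adjusted p below 0.01. Without 1 library they ranged from 0 to 16 and from 0 to 14, while calls over all 58548 peaks went with them: 8478 and 8903 without an AA library, 36 and 32 without a vehicle library, and 1710 with all. The median change of -0.16 over member peaks became 0.058 (library median), -0.067 (quantile), -0.33 (gene-end median), 0.17 (MACS2) and 0.034 (peaks above the median score), and -0.18 to -0.011 without 1 library. For H3K27ac the median of 0.12 became 0.045, 0.027, -0.026 and 0.25 under the same 4 scalings and peak sets and 0.078 to 0.18 without 1 library, and the count of calls was 0 to 1. For H3K27me3 the median of -0.11 became 0.48 over the 3 peaks above the median score and -0.50 to 0.12 without 1 library; MACS2 gave no member peak for this mark.

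With the replicate number as a block, 4 member peaks and 4 gene-end peaks passed for H3K4me3 (Elovl6, Fdps, Lbr and Stard4) and 1 member peak for H3K27me3, with 2522 of all 58548 H3K4me3 peaks called. Over all peaks, the deviations of same-numbered libraries had correlations of -0.0023 for H3K4me3, 0.0085 for H3K27ac and 0.0025 for H3K27me3. With few fragments in most peaks, such values cannot show whether the libraries were paired, and the labels do not say.

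Signs turned at single genes. For H3K4me3 after quantile normalization and centring on gene ends, values were -0.23 and -0.078 (Hmgcs1), -0.22 and -0.14 (Sqle), -0.20 and -0.18 (Srebf1), -0.18 and -0.086 (Fasn), and -0.059 and -0.099 (Elovl5). Centred on the library median, Acaca had 0.18 (0.038 after quantile normalization) and Scd2 0.20. Without 1 library the ranges were -0.067 to 0.14 (Sqle), -0.16 to 0.16 (Srebf1), -0.21 to 0.13 (Acaca), -0.12 to 0.094 (Scd2) and -0.028 to 0.18 (Elovl5). For H3K27ac after quantile normalization and centring on gene ends, values were -0.039 and -0.031 (Srebf1), -0.022 and -0.059 (Scd2), -0.033 and -0.061 (Fads2), and -0.047 and -0.032 (Elovl6). Without 1 library they ranged from -0.0057 to 0.33 (Hmgcs1), -0.19 to 0.79 (Acaca), -0.040 to 0.21 (Scd2) and -0.24 to 0.060 (Fads1). For H3K27me3 they ranged from -0.074 to 1.45 (Srebf2), -0.15 to 0.97 (Pmvk) and -0.44 to 1.54 (Acat2). The causes were not tested. With 2 libraries a group and the AA group shallower for H3K4me3, changes of weak peaks rest on few fragments, and a call that misses the threshold does not show equality.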
